A study of Drosophila melanogaster with 2 samples.

Results

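Peaks of the Hox protein Scr were examined at the starts of splicing machinery protein genes in Drosophila melanogaster embryos. The genes were the protein-coding genes whose symbol begins with Prp and a digit, with Sf3a or Sf3b, with Sm followed by B, D, E, F or G, with LSm and a digit, or with snRNP-. This rule used names and no measured value, but the set was chosen with earlier results of these data known. The rule found 30 of the 13968 protein-coding genes on the chromosome arms. Chromatin immunoprecipitation and sequencing had been done on whole embryos aged 0 to 24 h of a transgenic line that makes Scr fused to eGFP. The labels' description gives an antibody against GFP for the pull-down, while their antibody field names Scr. There was 1 group with 2 biological replicates and no other genotype, treatment or stage, so no group could be tested against another. Sex was not collected, and the control alignments were not analysed here.

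The spliceosome cuts introns out of pre-mRNA and is assembled from small nuclear ribonucleoproteins (snRNPs), each a small RNA with its proteins. Sm proteins form a ring on most of these RNAs, LSm proteins form a related ring on U6, the U1 snRNP recognises the 5′ splice site, and SF3A and SF3B belong to the U2 snRNP at the branch site. Genes named Prp are called after yeast mutants in pre-mRNA processing. These proteins are needed in cells throughout the embryo, whereas Scr is known for patterning the labial and first thoracic segments.

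The sequences at 6 of the starts are given, 4 for strong peaks with or without the DNA sites described further on and 2 for reasons given below. Each runs 5′ to 3′ along the gene's own strand, from 150 bases before the transcription start site (TSS), 200 bases in all. Capitals mark TATCGATA, bound by DREF, GGTCACAC, which lies within the site of M1BP, and CGATA, bound by BEAF-32, on either strand, so that GTGTGACC and TATCG are the last 2 read from the other strand. Every TATCGATA holds a CGATA on each strand. All 3 proteins are known at starts of broadly active fly genes. Sf3b1 and SmE had the strongest peaks among the genes considered for printing with GGTCACAC and with TATCGATA, and Sf3a1 and SmD1 the strongest among those with neither. Prp39 and snRNP-U1-70K were chosen after their values were seen, Prp39 for a summit beside a pair of TATCGATA sites and snRNP-U1-70K for having no listed summit.
Sf3b1: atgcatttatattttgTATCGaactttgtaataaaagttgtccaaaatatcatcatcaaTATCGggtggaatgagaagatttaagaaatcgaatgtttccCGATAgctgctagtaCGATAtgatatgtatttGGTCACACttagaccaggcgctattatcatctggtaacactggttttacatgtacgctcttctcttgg
Sf3a1: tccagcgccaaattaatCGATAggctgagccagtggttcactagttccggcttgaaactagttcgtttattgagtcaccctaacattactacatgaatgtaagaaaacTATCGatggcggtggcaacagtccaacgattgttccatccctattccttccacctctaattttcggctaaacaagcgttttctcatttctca
SmE: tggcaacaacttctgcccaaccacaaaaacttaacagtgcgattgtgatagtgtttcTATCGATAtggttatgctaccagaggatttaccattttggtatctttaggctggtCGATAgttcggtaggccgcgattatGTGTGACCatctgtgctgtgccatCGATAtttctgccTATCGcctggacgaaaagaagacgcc
SmD1: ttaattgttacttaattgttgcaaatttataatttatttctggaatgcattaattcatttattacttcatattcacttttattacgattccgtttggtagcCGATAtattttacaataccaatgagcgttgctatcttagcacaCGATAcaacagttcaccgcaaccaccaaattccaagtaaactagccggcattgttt
Prp39: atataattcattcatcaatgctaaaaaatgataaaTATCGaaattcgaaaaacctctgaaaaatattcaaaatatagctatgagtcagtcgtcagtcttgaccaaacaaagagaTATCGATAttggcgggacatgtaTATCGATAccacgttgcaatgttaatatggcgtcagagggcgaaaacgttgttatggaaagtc
snRNP-U1-70K: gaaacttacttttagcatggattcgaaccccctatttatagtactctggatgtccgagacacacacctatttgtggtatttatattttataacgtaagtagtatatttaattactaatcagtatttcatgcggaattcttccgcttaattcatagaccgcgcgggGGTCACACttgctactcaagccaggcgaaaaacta
On dm6, the window of Sf3b1 is chr2L:568190-568389 on the plus strand and that of Sf3a1 is chr3R:17002306-17002505 on the minus strand. The window of SmE is chr2L:7885401-7885600 on the minus strand and that of SmD1 is chr3L:12734562-12734761 on the minus strand. The window of Prp39 is chr3R:28811952-28812151 on the plus strand and that of snRNP-U1-70K is chr2L:6971688-6971887 on the minus strand.

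Each deposited list gives a peak's ends, its summit, a score and a signal. The signal is a value that the authors gave each peak, and no source used here says how it scales with depth or control. The score is capped at 1000, and no peak in a thresholded list scored below 830. On the arms, the series-level thresholded list, made from both replicates, held 5720 peaks, replicate 1's held 4462 and replicate 2's held 4376. Ranked lists hold entries without that threshold. A gene was counted when a summit lay within 500 bp of 1 of its own TSSs. Sequencing depth is unknown from the files. In whole embryos, strong recovery in few cells and weak recovery in many cells cannot be told apart.

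Most of the splicing machinery genes had an Scr peak at their start. In the series-level list a summit was found at 23 of the 30 (76.7%), against 36.2% of all protein-coding genes. By class these were 6 of 6 Sm core genes, 6 of 7 SF3A and SF3B genes, 2 of 3 LSm genes, 1 of 2 U1 genes and 8 of 12 Prp genes. The classes hold only genes whose names fit the rule, so these are not shares of whole complexes. No gene named SmG was among the 30. Genes with other names, such as snf, noi and Phf5a, were counted among the other splicing genes described below. The conservative series-level list also held a summit at 23 of the 30, against 36.0% of all genes. Replicate 1's list held one at 24 (80.0%), against 30.8%, and replicate 2's at 20 (66.7%), against 30.4%. Both replicates' lists held one at 19 (63.3%), against 26.4%. The share among splicing machinery genes was above that of all genes in each list, which is a description without a test. Without LSm1, whose ring acts in the decay of cytoplasmic mRNA, and Prp4k, a kinase, 22 of 28 had a series-level summit.

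**Figure D1:**
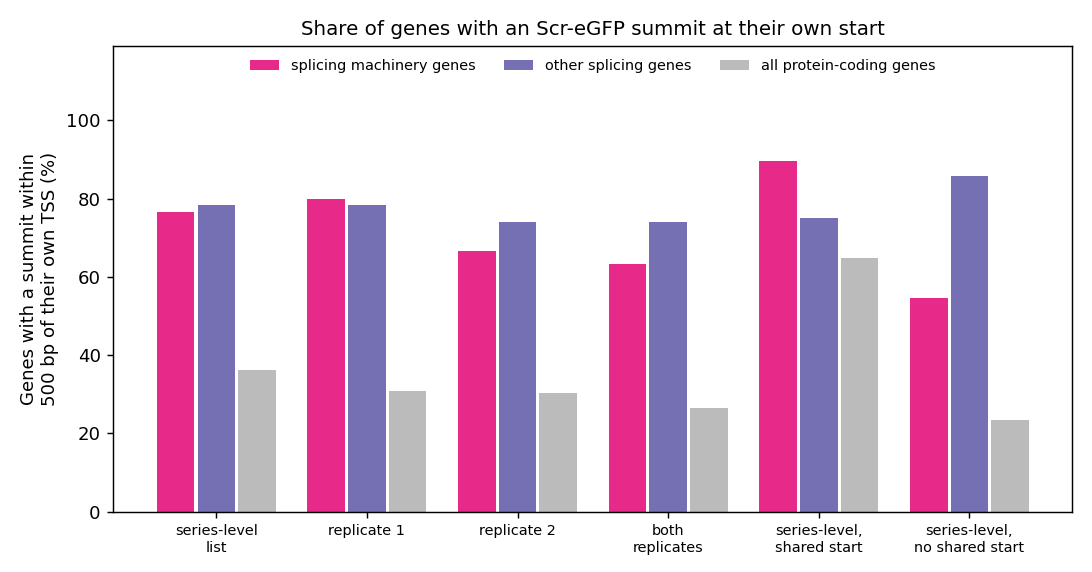
Bars show the percent of genes with a summit within 500 bp of their own TSS, for the 30 splicing machinery genes, 46 other splicing genes and all protein-coding genes, by list and, in the series-level list, by whether the start is shared with another gene. In the series-level list the bars stand at 76.7% of the 30 splicing machinery genes and 36.2% of all 13968 genes.

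The strongest peaks were at SF3 and Sm genes, though not every gene of these classes had a strong one. Over the 23 genes the series-level signal ran from 70.8 to 1073 with a median of 366, against a median of 233 over the 5062 protein-coding genes with a summit. Of the 23, 17 lay above that second median and 8 above 533.5, the upper quartile of those 5062. The median was 600 over the 6 Sm genes and 520 over the 6 SF3A and SF3B genes with a summit, and 209 over the 8 Prp genes. The 2 LSm genes with a summit had 355 and 579, and the U1 gene with one had 394.

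Among the SF3A and SF3B genes, Sf3b1 (FBgn0031266, chr2L:568340-572907), which encodes the large SF3B subunit that grips the branch site, had the strongest peak of all 30 genes. Its signal was 577 in replicate 1, 496 in replicate 2 and 1073 in the series-level list, where it ranked 224. Its series-level summit lay at 568270, 70 bp upstream of the TSS, and the summits of the replicates were 2 bp apart. Sf3a1 (FBgn0266917, chr3R:16999384-17002355), an SF3A subunit, had 493 in replicate 1, 491 in replicate 2 and 977 in the series-level list, 48 bp upstream of its TSS. Sf3a2, another SF3A subunit, had 400 in replicate 1, 281 in replicate 2 and 674 in the series-level list. All 3 were in both replicates' lists, and the replicates were closest at Sf3a1. The other SF3B genes with a summit, Sf3b2, Sf3b3 and Sf3b6, had series-level signals from 200 to 366. Sf3b5 (FBgn0040534), which encodes a small SF3B subunit, was in no thresholded list. Its strongest ranked entries had signals of 22.0 in replicate 1, 27.3 in replicate 2 and 35.1 in the series-level ranked list, where the score was 60. They lay at different places, 471 bp upstream of the TSS in replicate 1 and 317 bp downstream in replicate 2.

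The Sm core genes of the set encode ring proteins. SmD3 (FBgn0023167, chr2R:12168731-12170003) had 477 in replicate 1, 446 in replicate 2 and 937 in the series-level list. SmE (FBgn0261790, chr2L:7884930-7885450) had 501 in replicate 1, 357 in replicate 2 and 841 in the series-level list, with the summit 5 bp downstream of the TSS, in an exon outside the coding sequence. SmD1 (FBgn0261933, chr3L:12733364-12734611) had 409 in replicate 1, 211 in replicate 2 and 620 in the series-level list. Replicate 1 was higher at all 3, by a ratio of 1.94 at SmD1, the widest among the 19 genes listed in both replicates. SmB and SmD2 had series-level signals of 580 and 479. SmF (FBgn0000426, chr2R:12183844-12184310) was the low one of these genes, with 52.6 in replicate 1 and 88.4 in the series-level list. Replicate 2 listed no summit at SmF, and its ranked entry there had a signal of 34.6 and a score of 54.

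Of the LSm genes, LSm1 had 282 in replicate 1, 274 in replicate 2 and 579 in the series-level list. LSm7, a part of the U6 ring and of the decay ring, had 217 in replicate 1, 142 in replicate 2 and 355 in the series-level list. LSm3, which is in the same rings, was in neither replicate's list nor in the series-level list. The conservative list did hold a summit for LSm3, 200 bp upstream of the TSS, with a signal of 39.8 and a score of 914. Its strongest ranked entries had signals of 23.0 in replicate 1, 34.3 in replicate 2 and 58.1 in the series-level ranked list, where the score was 615. The LSm genes thus split into 2 with peaks in both replicates' lists and 1 listed in the conservative list only.

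The U1 genes also differed from each other. For snRNP-U1-C, whose product steadies U1 at the 5′ splice site, the signal was 200 in replicate 1, 187 in replicate 2 and 394 in the series-level list. By contrast snRNP-U1-70K (FBgn0016978, chr2L:6968711-6971737), whose product binds U1 RNA directly, was in no thresholded list. Its ranked entries had signals of 29.5 in replicate 1, 18.8 in replicate 2 and 59.5 in the series-level ranked list, where the score was 74.

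Among the Prp genes, Prp39 and Prp40, whose yeast counterparts are U1 snRNP proteins, and Prp6, a protein of the U4/U6.U5 tri-snRNP, had the strongest peaks. Prp39 (FBgn0039600, chr3R:28812102-28817354) had 228 in replicate 1, 235 in replicate 2 and 447 in the series-level list. Prp40 had 138 in replicate 1, 184 in replicate 2 and 324 in the series-level list. Prp6 had 162 in replicate 1, 115 in replicate 2 and 287 in the series-level list. All 3 were below the Sm median of 600. Prp5, an RNA helicase that acts with U2 in yeast, and Prp38, a tri-snRNP protein in yeast, had series-level signals of 259 and 152 and were in both replicates' lists.

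For 3 other Prp genes with a series-level summit, replicate 1 listed the peak and replicate 2 did not. Prp8, the large scaffold at the heart of the spliceosome, had 72.2 in replicate 1 and 159 in the series-level list. Replicate 2's ranked entry at Prp8 had a signal of 95.1, above replicate 1's, with a score of 742. Prp19, a ubiquitin ligase that names its own spliceosomal complex, had 46.5 in replicate 1, 47.0 as a ranked entry of replicate 2 with a score of 564, and 78.7 in the series-level list, and it was not in the conservative list. Prp3, a tri-snRNP protein, had 54.5 in replicate 1, 34.0 as a ranked entry of replicate 2 with a score of 407, and 70.8 in the series-level list, the weakest of the 23. At Prp8 and Prp19 the gene missed replicate 2's list although the deposited signal there was not the lower one. How signals scale between the replicates is unknown.

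The other 4 Prp genes had no series-level summit. Prp18, a second-step splicing factor, was in replicate 1's list with 44.3, 100 bp upstream of the TSS. Its ranked entry in replicate 2 had 26.7, 259 bp upstream. Prp4k was in replicate 2's list with 54.3, 47 bp downstream of the TSS. Its ranked entry in replicate 1 had 12.5, 257 bp downstream. Prp16, a second-step RNA helicase, had ranked entries of 29.2 in replicate 1 and 39.7 in replicate 2. These lay at different TSSs of the gene, with summits at 14201315 and 14212325. Prp31, a tri-snRNP protein, had 24.2 in replicate 1, 495 bp upstream of the TSS, and 29.3 in replicate 2, 256 bp downstream. At these 4 genes the replicates' values thus belong to different summit positions, less far apart at Prp18 and Prp4k. Neither Prp16 nor Prp31 was in a thresholded list.

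Over all lists, 26 of the 30 genes were in at least 1 thresholded list, 19 were in all 4, and 4 were in none (Prp16, Prp31, Sf3b5 and snRNP-U1-70K). The matching shares of all genes were not counted. In the series-level ranked list all 30 had an entry, against 69.2% of all genes. Of the 23 listed genes 22 had the top score of 1000. Most listed genes of the annotation had it too, with 33.0% of all genes at that score and 36.2% with any series-level summit. The lowest score among the 23 was 988, at Prp19, and among the strongest ranked entries of the other 7 the highest was 786, at Prp31. By distance, the farthest counted summit was 325 bp from its TSS, at LSm1, and among the 7 genes without a counted summit the nearest one was 1132 bp away, at Sf3b5.

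**Figure D2:**
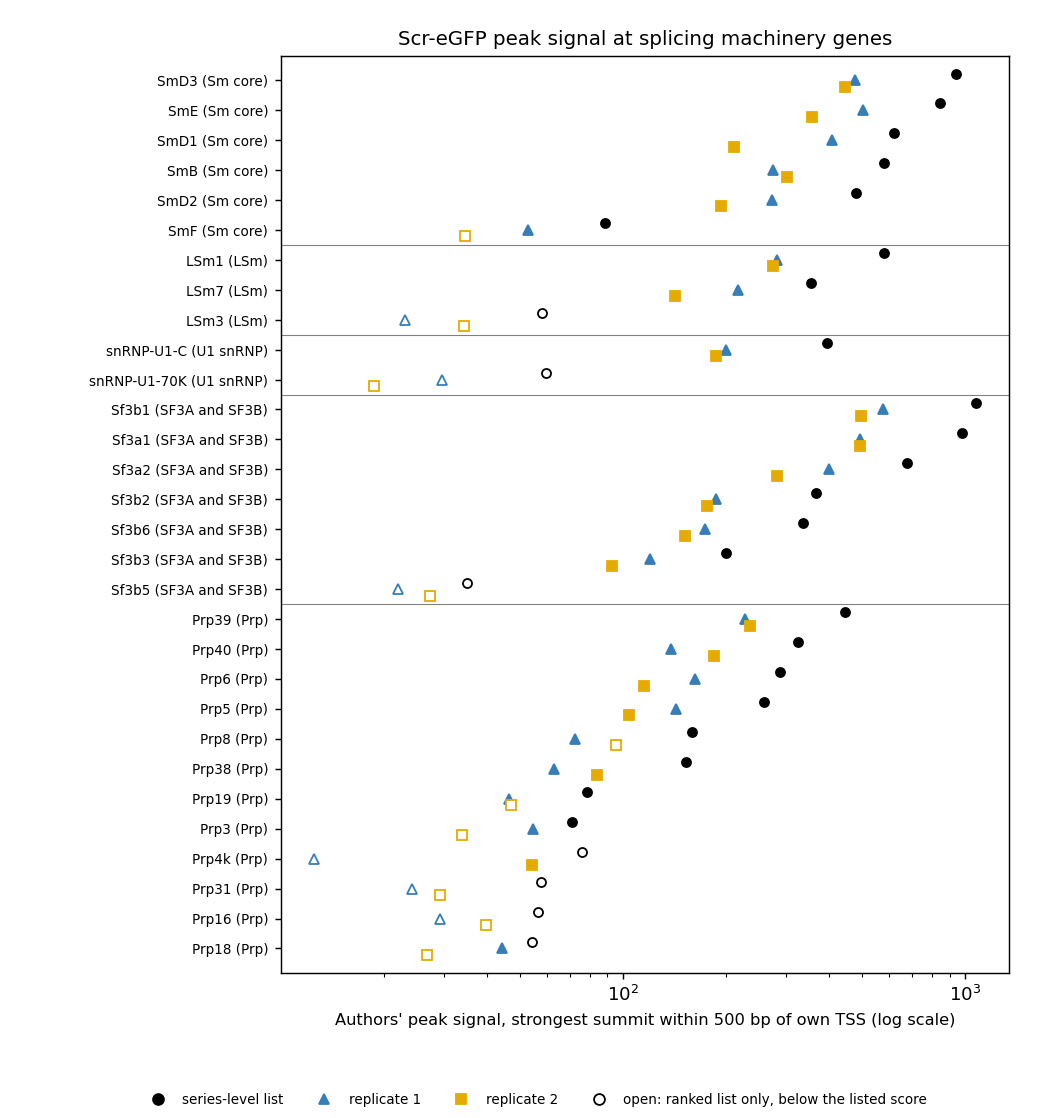
Points show the authors' signal of the strongest entry within 500 bp of the own TSS of each of the 30 genes, on a log axis, for replicate 1, replicate 2 and the series-level list. Sf3b1 is highest at 1073 in the series-level list, and open symbols, which mark entries found only in a ranked list, lie below 100 in every case. The replicates' entries lie at different places at Prp16, Prp31 and Sf3b5 and, less far apart, at Prp4k, Prp18 and Prp6.

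Where both replicates listed a peak, their signals followed each other across genes. Over those 19 genes Pearson's r between replicates was 0.91 on the log2 scale and Spearman's rho was 0.93, against 0.95 and 0.96 over the 3694 genes of the whole annotation listed in both. These correlations run across genes of the same 2 libraries, so the points share library and depth. Replicate 1's signal was the higher at 15 of the 19, against 2501 of the 3694. The median log2 difference was 0.19 (SD 0.35), against 0.16 (SD 0.37) over all genes. The ratio of replicate 1 to replicate 2 ran from 0.750 at Prp38 to 1.94 at SmD1. The summits of the replicates lay a median of 20 bp apart, and at most 220 bp apart, at Prp6.

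The summits were close to the starts and mostly upstream of them. The median distance was 49 bp over the 23 genes, against 78 bp over all genes with a summit. A summit lay within 100 bp of the TSS at 18 of 23 (78.3%), against 59.5% of all genes with one, and upstream of it at 19 of 23 (82.6%), against 81.1%. In the replicates' own lists the median distances were closer to the background, at 66 bp against 76 bp of all genes in replicate 1 and 68.5 bp against 77 bp in replicate 2. The share upstream was near that of all genes. More than 1 series-level summit lay within 500 bp at 10 of 23 (43.5%), against 25.0% of all genes with a summit.

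**Figure D3:**
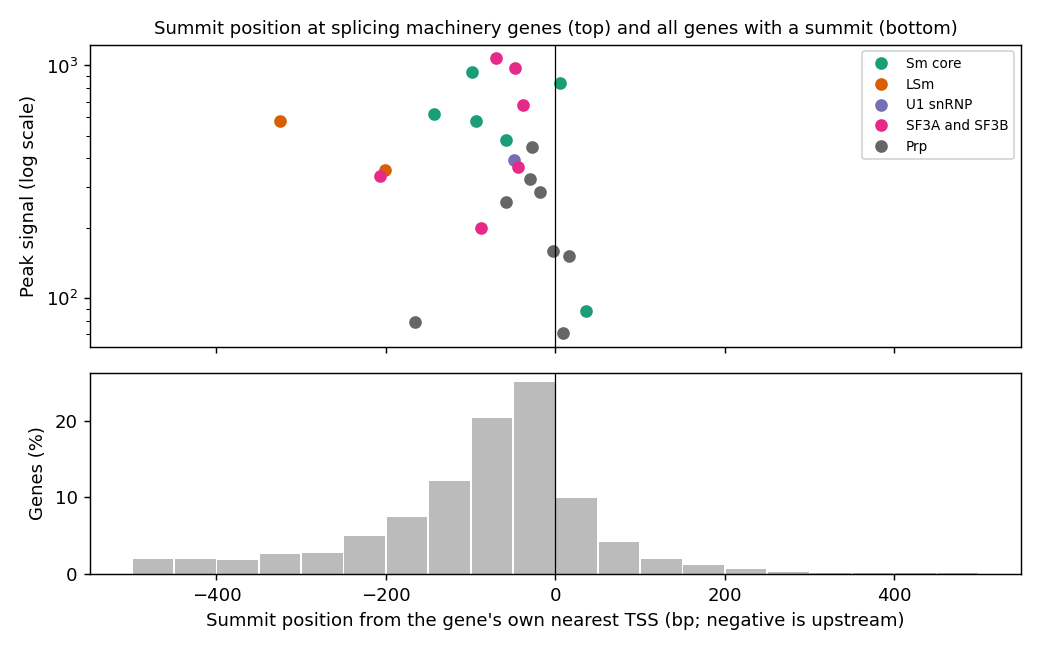
The upper panel plots signal on a log axis against the distance in bp from each gene's own TSS to its strongest series-level summit, negative upstream, coloured by class, and the lower panel the percent of all genes with a summit per distance bin. Summits of the splicing machinery genes run from -325 to 36 bp with a median of -49 bp.

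Many of these peaks lay between 2 genes. Another protein-coding TSS was within 500 bp of the own TSS at 19 of the 30 genes (63.3%), against 30.8% of all genes. In all 19 cases the neighbour ran in the other direction, but how often this held among all genes with a shared start was not counted. A series-level summit was found at 17 of the 19 genes with such a shared start (89.5%), against 64.8% of all genes with one. It was found at 6 of the 11 genes without (54.5%), against 23.5% of all such genes. These 6 were Prp39, Prp5, Prp8, Sf3a1, Sf3b3 and SmF. The share was above the background with and without a shared start.

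At 5 of the 23 genes another gene's TSS was nearer to the summit than the own one. The LSm1 summit lay 4 bp from the TSS of Xpd, the LSm7 summit 104 bp from BuGZ, the Prp19 summit 77 bp from rswl, the Sf3b6 summit 94 bp from Tnpo and the Sf3b2 summit 41 bp from CG17219. At the other 18 the own TSS was the nearest. That is 18 of the 30 genes, against 28.2% of all genes, and the count of 23 stood against 36.2%. No other TSS lay within 500 bp of the summit at 4 genes, Prp39, Prp8, Sf3b3 and SmF, with series-level signals from 88.4 to 447. Which gene of a pair a shared peak belongs to was not tested.

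DNA sites were sought in the 300 bases from 250 before the TSS on, on both strands. The TSS was the gene's nearest one to its strongest series-level summit, or the annotation's canonical one without a summit. The summit thus helped choose the start at genes with several. With canonical starts throughout, TATCGATA was in 7 of the 30, against 8.94% of all promoters, and GGTCACAC in 9, against 7.52%. Shares among genes with a summit were not recounted that way. TATCGATA was in the promoters of 7 of the 30 genes (23.3%), namely Prp39, Prp6, Sf3b2, Sf3b3, SmB, SmE and snRNP-U1-C, against 9.74% of all promoters. All 7 had a series-level summit, against 88.5% of all genes with TATCGATA. Among genes with a summit, TATCGATA was in 7 of 23 (30.4%), against 23.8%. At Prp39, shown above, the summit lay 4.5 bp from the centre of 1 TATCGATA and 18.5 bp from the other. This was the closest case. At the other genes the nearest TATCGATA lay from 12.5 bp (Prp6 and snRNP-U1-C) to 133.5 bp (SmB) from the summit, with 94.5 bp at SmE.

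GGTCACAC was in the promoters of 9 genes (30.0%), namely Prp18, Prp3, Sf3a2, Sf3b1, Sf3b6, SmD2, SmE, SmF and snRNP-U1-70K, against 7.77% of all promoters. Of these, 7 had a series-level summit, against 65.1% of all genes with GGTCACAC. Among genes with a summit it was in 7 of 23 (30.4%), against 13.9%. The summit lay 14.5 bp from the GGTCACAC of SmE and 55.5 bp from that of Sf3b1. The distance ran from 7.5 bp at SmF to 206.5 bp at Sf3a2, with 164.5 bp at SmD2 and 168.5 bp at Sf3b6. By contrast, snRNP-U1-70K holds the same letters and had no listed summit. Presence of these letters therefore did not go with a listed peak at every gene.

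CGATA was in 21 of the 30 promoters (70.0%), against 48.2% of all promoters, and in 20 of 23 with a summit (87.0%), against 71.2% of all genes with one. Of the 7 genes without a summit only Prp4k held it. Counting only CGATA outside TATCGATA gave 20 of 30 (66.7%), against 45.7%. Sf3a1 and SmD1, which held neither TATCGATA nor GGTCACAC, both held CGATA in the sequences shown.

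Among sites named for Hox proteins and their partners, TAATTA was the one with a share above that of all promoters. TAATTA, a core bound by many homeodomains, was in 9 of 30 promoters (30.0%), against 20.2%, and in 6 of 23 with a summit (26.1%), against 22.0%. It was also in 3 of the 7 without a summit (42.9%), so its share was not higher where a peak was listed. In the shorter windows centred on the summit it was at 3 of 23 (13.0%), against 6.42% of all promoter summits. TGATTTAT, a site of Hox proteins with Exd, was in 1 (snRNP-U1-C), against 3.44%, and TGATTAAT, another, in 0, against 2.00%. TGACAG, bound by the cofactor Hth, was in 3 of 30, against 11.9%, and GAGAGAG, bound by GAGA factor, in 0, against 6.28%. A match is a description of letters and was not tested for binding, and no match says only that these letters are not in the window.

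**Figure D4:**
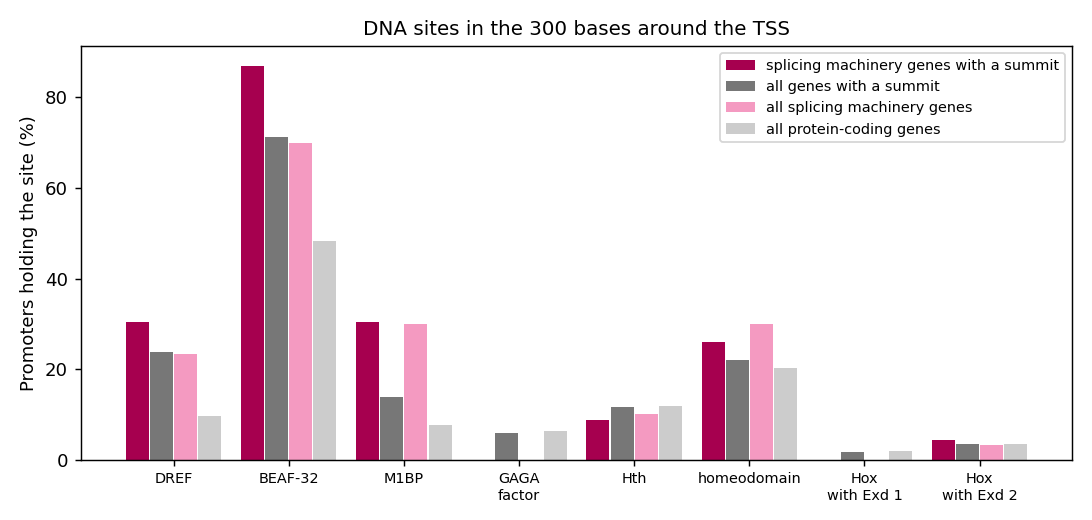
Bars show the percent of promoters that hold each of 8 DNA sites, labelled by the protein it is known for, among splicing machinery genes with a series-level summit, all genes with a summit, all splicing machinery genes and all protein-coding genes. GGTCACAC is in 30.4% of the 23 splicing machinery genes with a summit and 13.9% of all genes with one.

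Other genes of splicing, 46 found of 68 listed symbols with alternative spellings included, were also mostly marked. A series-level summit was at 36 of 46 (78.3%), against the same 36.2% of all genes, with a median signal of 450. Among those with strong peaks was SF2, an SR protein, with 851 in replicate 1, 662 in replicate 2 and 1520 in the series-level list. Another was Caper, a U2AF-related factor, with 808 in replicate 1, 674 in replicate 2 and 1483 in the series-level list. BCAS2, CG4849 and Cwc25 had none in a thresholded list. Peaks at splicing genes were thus not limited to the names the rule takes in, and no test of a difference between the sets was made.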

How the data were processed

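Peak lists from 2 replicates of 1 group were used, on the dm6 assembly. The authors deposited 4 thresholded and 4 ranked lists. The score that the authors deposited per peak is derived from the irreproducible discovery rate. The signal is the authors' deposited value per peak, and ranks are within a list only. Comparisons between replicates use the deposited values without scaling for depth. The aligner and peak caller were not given in the sources used here. In each ranked list 8 further columns of values tied to no sample were not used. Per the labels, chromatin was sonicated to 200 to 800 bp.

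Genes came from the Ensembl annotation BDGP6.54 of release 115 and sequence from the same assembly in RefSeq. Coordinates count from 1. Counting, distances and site searches were done in Python 3.11.15 with numpy 2.4.6, scipy 1.17.1 and matplotlib 3.10.9, and tested on simulated data. With several summits within 500 bp the strongest was taken. No test was run, because there was 1 group and the genes and lists were chosen with earlier results of these data known.

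In each class the 3 strongest genes, up to 3 without a summit and every gene whose lists differed were described in full, plus the strongest and the weakest overall. Among other splicing genes these were the 3 strongest and 3 without, of which 1 is not reported here. Sequences were the strongest with each of 2 sites and the strongest with neither, and arm 2R was left out of them. Alternatives covered the list, the window, the score, the start and the replicate.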

Additional observations from a re-analysis of the deposited data

How the results depend on the processing

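The count of 23 genes lay between 18 (own TSS nearest to the summit, against 28.2% of all genes) and 30 (ranked lists) under all alternatives. No count could pass 30, and the series-level ranked list had an entry at 69.2% of all genes. Leaving out a replicate gave 20 to 24 of the 30 genes and 34 to 36 of the other splicing genes. The conservative and per-replicate ranked lists, the count in both replicates' lists and the count without LSm1 and Prp4k were chosen after seeing the data. The median signal of 366 was 190 without replicate 1 and 193 without replicate 2, and the series-level signal was about the sum of both (median ratio 1.01). The median distance of 49 bp was 68.5 bp without replicate 1 and 66 bp without replicate 2, against 77 bp and 76 bp over all genes. Shared starts numbered 12 at 250 bp (18.3% of all genes) and 19 at 500 bp (30.8%). In the shorter windows at the summit, where fewer bases are searched, GGTCACAC was at 3 of 23 genes (4.52% of all promoter summits), TGACAG at 1 (4.04%), TAATTA at 3 (6.42%) and TGATTTAT at 0 (0.96%). No paired analysis was possible because there was only 1 group. Depth is unknown and limits the reading of weak entries.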

Other observations

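Of the 7 genes without a series-level summit at their own start, 4 had one elsewhere within 2000 bp of the gene. The same share over all genes was not counted, so this says nothing particular about these genes. Downstream of snRNP-U1-70K, series-level summits with signals of 1158 and 574 lay within 500 bp of the TSS of Sumo, and 1 more had 70.5. Downstream of Sf3b5 a summit with 123 lay at Kcmf1, downstream of Prp31 one with 82.5 at CG6878, and downstream of Prp16 one with 75.1 at mRpL38 and CG11674. LSm3, Prp18 and Prp4k had none there, and the nearest summits lay 3084, 7197 and 11312 bp from their starts.

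At 10 genes a second, weaker summit lay within 500 bp. The second at Prp6 had a signal of 246, at -288 bp from the TSS, beside 287 for the first, and replicate 1's strongest summit at Prp6 lay 223 bp upstream while that of replicate 2 lay 3 bp upstream. At SmD1 the second had 219, and at SmD3 2.17. Some of the genes lie close together. Prp8 and SmD3 are 5732 bp apart and SmD3 and SmF 13840 bp apart, while Prp40 and Sf3b2 overlap at their 3′ ends by 188 bp.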
